A study of Mus musculus with 16 samples.

Results

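The genes of hepatic de novo lipogenesis and its regulators were followed in mouse liver on a chow diet and on a high-fat diet (HFD), with or without siRNA knockdown (KD) of *Fgfr4*. They were chosen by symbol as 10 genes of the 52143 in the count table: the transcription factor genes *Srebf1* and *Mlxipl*, the enzyme genes *Acly*, *Acaca*, *Fasn*, *Scd1*, *Elovl6* and *Me1*, and *Thrsp* and *Pnpla3*. Of these, 9 passed the filter on low counts and were tested among 11324 genes, and *Pnpla3* did not pass. The study itself named *Srebf1*, *Scd1*, *Acaca* and *Fasn* when it examined these libraries, so those genes are not an independent choice.

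Male C57BL6/J mice, 6 weeks old when the diets began, received chow or HFD (60% fat) for 12 weeks. Subcutaneous injections every 2 weeks held either saline or siRNA directed at *Fgfr4*, at a dose of 3 mg/kg, carried by N-acetylgalactosamine (GalNAc), a sugar that hepatocytes take up. The groups were Chow and HFD, which received saline, and Chow/FGFR4 KD and HFD/FGFR4 KD, which received the siRNA, with 4 liver libraries in each. No group received a control siRNA, so an effect of siRNA as such and the loss of FGFR4 cannot be told apart. By the methods of the study mice were housed 4 to a cage, and the cages, the hour and the feeding state at liver collection were not given in the sources used here. Replicate numbers came from the sample titles, and nothing in the labels says how they were assigned.

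Total counts per library ran from 3445949 in HFD/FGFR4 KD 4 to 5976449 in HFD 1. The siRNA target *Fgfr4* lay between 21.8 and 36.3 CPM (counts relative to library size, scaled between libraries by TMM factors) in the 8 saline libraries and between 2.43 and 6.17 CPM in the 8 KD libraries. With limma-voom and Benjamini-Hochberg adjustment over all genes the KD difference was -2.62 log2 in mice on chow (adjusted p = 0.000223) and -2.78 log2 in mice on HFD (adjusted p = 9.06e-05). Hepatocyte markers were abundant in every library, with a sum over 10 genes from 63230 to 81259 CPM, most of it *Alb*.

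De novo lipogenesis turns surplus carbohydrate into fatty acids. Citrate exported from mitochondria is cleaved by ATP citrate lyase (*Acly*), acetyl-CoA carboxylase (*Acaca*) makes malonyl-CoA, fatty acid synthase (*Fasn*) builds palmitate from it, and *Elovl6* and *Scd1* lengthen and desaturate the product, while malic enzyme (*Me1*) supplies NADPH. In liver the pathway is switched on by feeding, through insulin and SREBP1c (from *Srebf1*) and through glucose and ChREBP (from *Mlxipl*), and both factors are known to drive the enzyme genes.

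SREBP1c is known to act on lipogenic promoters together with the factor NF-Y, and ChREBP binds pairs of E-box-like motifs, so the bases just before the transcription start were examined. RefSeq promoter sequences (GRCm38.p6, 250 bases before to 50 after each start) were present for 9 of the 10 genes, with 13 starts in all, and none was given for *Scd1*. The NF-Y box CCAAT, searched on both strands, occurred in 8 of these 13 promoters (61.5%) and in 7 of 9 genes, against 37.4% of all 32851 promoters in the table. The SREBP-type element TCACNCCAC occurred in 1 of 13 (7.69%, against 1.24% of all), and the palindromic E-box CACGTG in 1 of 13 (7.69%, against 7.15%), both before *Mlxipl*. A match of letters is a description and not a site. The 250 bases before the start are printed for *Fasn* (chr11:120824548-120824797, minus strand) and *Thrsp* (chr7:97417551-97417800, minus strand), which hold more than 1 NF-Y box, and for both starts of *Mlxipl* (chr5:135089640-135089889 and chr5:135106641-135106890, plus strand), the regulator whose level ran against the others below. Capitals mark the matches: ATTGG and CCAAT for the NF-Y box on either strand, which overlap in CCAATTGG before *Fasn*, CACGTG for the E-box and TCACACCAC for the SREBP-type element.
*Fasn*: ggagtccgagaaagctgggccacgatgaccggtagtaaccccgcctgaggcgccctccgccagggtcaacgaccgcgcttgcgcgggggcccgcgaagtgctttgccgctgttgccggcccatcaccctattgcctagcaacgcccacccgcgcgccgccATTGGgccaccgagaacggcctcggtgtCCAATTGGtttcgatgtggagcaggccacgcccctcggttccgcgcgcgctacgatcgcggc
*Thrsp*: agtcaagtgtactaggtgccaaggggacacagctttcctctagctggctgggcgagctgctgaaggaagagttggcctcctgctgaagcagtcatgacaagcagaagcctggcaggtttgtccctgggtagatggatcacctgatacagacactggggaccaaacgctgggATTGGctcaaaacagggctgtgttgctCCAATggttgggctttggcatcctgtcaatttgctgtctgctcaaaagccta
*Mlxipl*, first start: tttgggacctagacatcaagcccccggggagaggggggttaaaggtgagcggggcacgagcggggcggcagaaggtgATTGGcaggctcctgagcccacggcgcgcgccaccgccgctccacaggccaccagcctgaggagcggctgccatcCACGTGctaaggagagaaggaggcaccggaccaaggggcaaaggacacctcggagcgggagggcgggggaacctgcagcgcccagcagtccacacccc
*Mlxipl*, second start: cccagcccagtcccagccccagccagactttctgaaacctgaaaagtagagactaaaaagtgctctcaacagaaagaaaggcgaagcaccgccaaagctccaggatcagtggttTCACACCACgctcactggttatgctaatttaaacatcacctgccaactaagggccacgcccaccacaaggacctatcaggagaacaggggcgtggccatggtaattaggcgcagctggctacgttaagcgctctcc
The boxes before *Fasn* began 90, 62 and 59 bases before the start, and those before *Thrsp* 79 and 52 bases before it.

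By GRCm38 annotation (GENCODE M21) all 10 are protein-coding genes. *Srebf1* lies on chromosome 11 from 60199089 to 60222581, *Fasn* on chromosome 11 from 120805846 to 120824547, *Scd1* on chromosome 19 from 44394455 to 44407879, *Elovl6* on chromosome 3 from 129532355 to 129638495 and *Me1* on chromosome 9 from 86581371 to 86695953. *Acly* and *Acaca* are also on chromosome 11, *Mlxipl* on 5, *Thrsp* on 7 and *Pnpla3* on 15.

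Per length, *Scd1* stood far above the other lipogenic genes. In Chow its mean level was 992 CPM per kb of annotated exon (lowest library 648, highest 1355), and *Scd1* alone took from 0.140% of all counts in HFD/FGFR4 KD 1 to 1.52% in HFD 3. *Thrsp*, which encodes the lipogenic protein Spot 14, followed with 76.2 CPM per kb in Chow (57.5 to 114). Next came *Me1* (51.6 CPM per kb, 47.1 to 58.9), *Acly* (41.8, 36.4 to 49.1), *Mlxipl* (39.8, 33.4 to 48.2) and *Fasn* (27.4, 19.8 to 35.1). *Srebf1* (13.6 CPM per kb, 7.69 to 16.2), *Elovl6* (11.8, 9.82 to 15.6) and *Acaca* (5.86, 4.87 to 7.07) were the lowest of the genes tested. Neighbours in this order overlapped in their ranges over the 4 libraries, except *Scd1* and *Thrsp*, *Fasn* and *Srebf1*, and *Elovl6* and *Acaca*. The exon length is the union of all annotated exons, which for *Acaca*, with its 17074 bases, may be longer than the transcripts present.

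Some counts depended on how reads were divided among similar sequences. *Me1* shared 36.9% of its 31-base words with other annotated transcripts, most with the copy Gm7049, and *Acaca* shared 33.5%, most with Gm5182, whereas *Fasn* and *Acly* shared none. These copies received few counts, at most 3.29 for Gm7049 and 23.97 for Gm5182 in any library, and *Scd3*, the closest relative of *Scd1* by shared words (8.18%), received at most 4.14. *Pnpla3* shared 8.83% of its words, most with Gm49513, which received up to 21.5 counts, more than *Pnpla3* itself in any library. The counts are per gene, so the SREBP1a and SREBP1c transcripts of *Srebf1* were not separated.

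**Figure D1:**
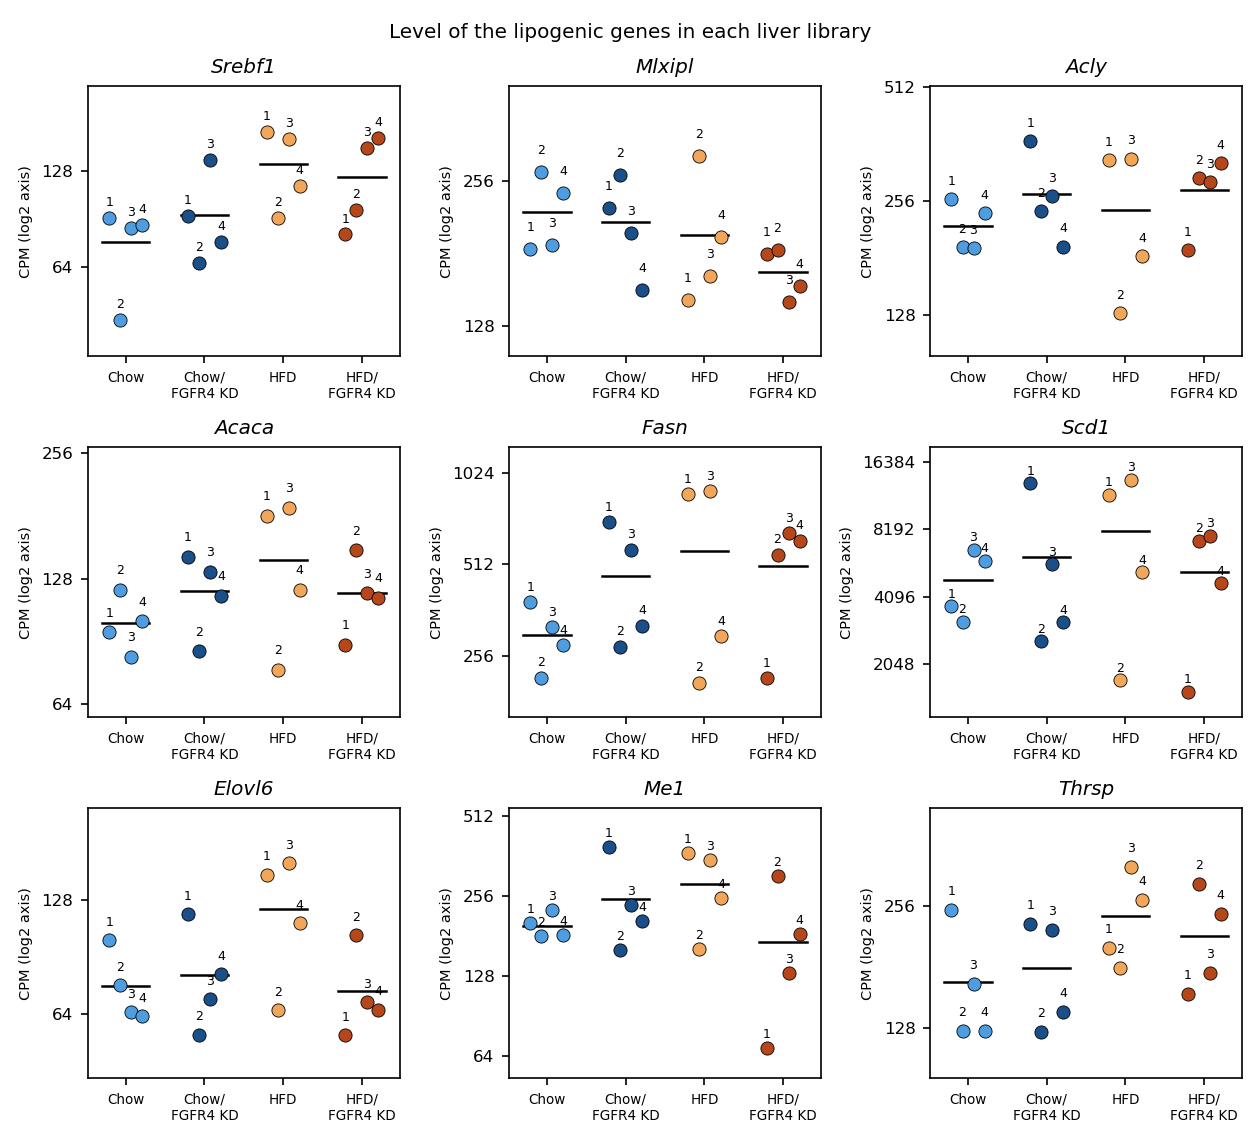
Level in CPM (log2 axis) of the 9 lipogenic genes tested in each of the 16 libraries, by group; numbers are replicate numbers and black lines are group means (n = 4). HFD 1 and HFD 3 lie above HFD 2 and HFD 4 for *Fasn*, *Scd1*, *Acly*, *Acaca*, *Elovl6* and *Me1*, and HFD/FGFR4 KD 1 is the lowest of its group for 8 of the 9 genes.

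The question of FGFR4 KD on HFD was whether loss of the receptor changed the lipogenic genes of the fatty liver. None of the 9 genes passed the threshold of the study (p under 0.05 with an adjusted p under 0.25), against 3.14% of all genes tested. Of the 9 genes, 8 were lower and 1 was higher in point estimate, with a median of -0.21 log2 against 0.0035 over all genes, and no gene had libraries that did not overlap between the groups, against 6.49% of all genes. At an unadjusted p under 0.05 there were 2 genes, *Elovl6* and *Me1*, against 11% of all genes, and edgeR and DESeq2 also called none of the 9.

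*Elovl6*, the elongase that takes palmitate to stearate, was at 149, 65.7, 160 and 111 CPM in HFD 1 to 4. In HFD/FGFR4 KD it was at 56.4, 103, 68.7 and 65.8 CPM. The groups overlapped because HFD 2 lay among the KD libraries, and the other 3 HFD libraries lay above all 4 KD libraries. The difference was -0.68 log2 (95% interval -1.25 to -0.11, limma-voom adjusted p = 0.358). Without HFD 2 it was -0.95 (limma-voom adjusted p = 0.0920) and without HFD/FGFR4 KD 2 it was -0.86 (limma-voom adjusted p = 0.234). Either omission brought *Elovl6* past the threshold, and the calls over all genes rose from 356 to 605 and 452.

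*Me1*, the cytosolic malic enzyme, was at 374, 162, 352 and 252 CPM in HFD and at 68.8, 306, 131 and 184 CPM in HFD/FGFR4 KD. The lowest value of all 16 libraries was that of HFD/FGFR4 KD 1, and the KD libraries spanned a 4.46-fold range. The difference was -0.85 log2 (95% interval -1.62 to -0.08, adjusted p = 0.398 by limma-voom). Leaving out HFD/FGFR4 KD 1 moved it to -0.47. Leaving out HFD 2 or HFD/FGFR4 KD 2 moved it to -1.10 or -1.19, past the threshold (limma-voom adjusted p = 0.219 and 0.156). Calls over all genes rose without HFD 2 and without HFD/FGFR4 KD 2, as given for *Elovl6*.

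The central enzymes could not be placed on either side. *Fasn* was at 871, 209, 889 and 298 CPM in HFD and at 217, 551, 648 and 612 CPM in HFD/FGFR4 KD. Its values fell into a high and a low pair on HFD, and in the KD group 3 libraries lay between those pairs and 1 lay beside the low pair. The difference was -0.0037 log2, with a 95% interval from -0.96 to 0.95 (adjusted p = 0.999), so a change of nearly 2-fold in either direction lay inside it. *Scd1*, the delta-9 desaturase, was at 11674, 1734, 13586 and 5259 CPM in HFD and at 1541, 7258, 7661 and 4703 CPM in HFD/FGFR4 KD. Its difference was -0.46 log2 with an interval from -1.79 to 0.87 (adjusted p = 0.842), the widest of the 9 genes. Without HFD/FGFR4 KD 1 these 2 differences were 0.37 for *Fasn* and 0.05 for *Scd1*, and without HFD 2 they were -0.39 and -1.07.

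*Acly*, which supplies cytosolic acetyl-CoA, was the only gene with a higher point estimate in HFD/FGFR4 KD (0.25 log2, interval -0.31 to 0.81). *Acaca* was at -0.21 log2 (interval -0.72 to 0.31). *Thrsp* was at -0.17 log2 (interval -0.73 to 0.39). The regulators were at -0.15 log2 for *Srebf1* (-0.74 to 0.45) and -0.21 log2 for *Mlxipl* (-0.63 to 0.21), with adjusted p by limma-voom of 0.892 and 0.760. A change of 2-fold lay outside the intervals of *Srebf1*, *Mlxipl*, *Acly*, *Acaca* and *Thrsp* in both directions.

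**Figure D2:**
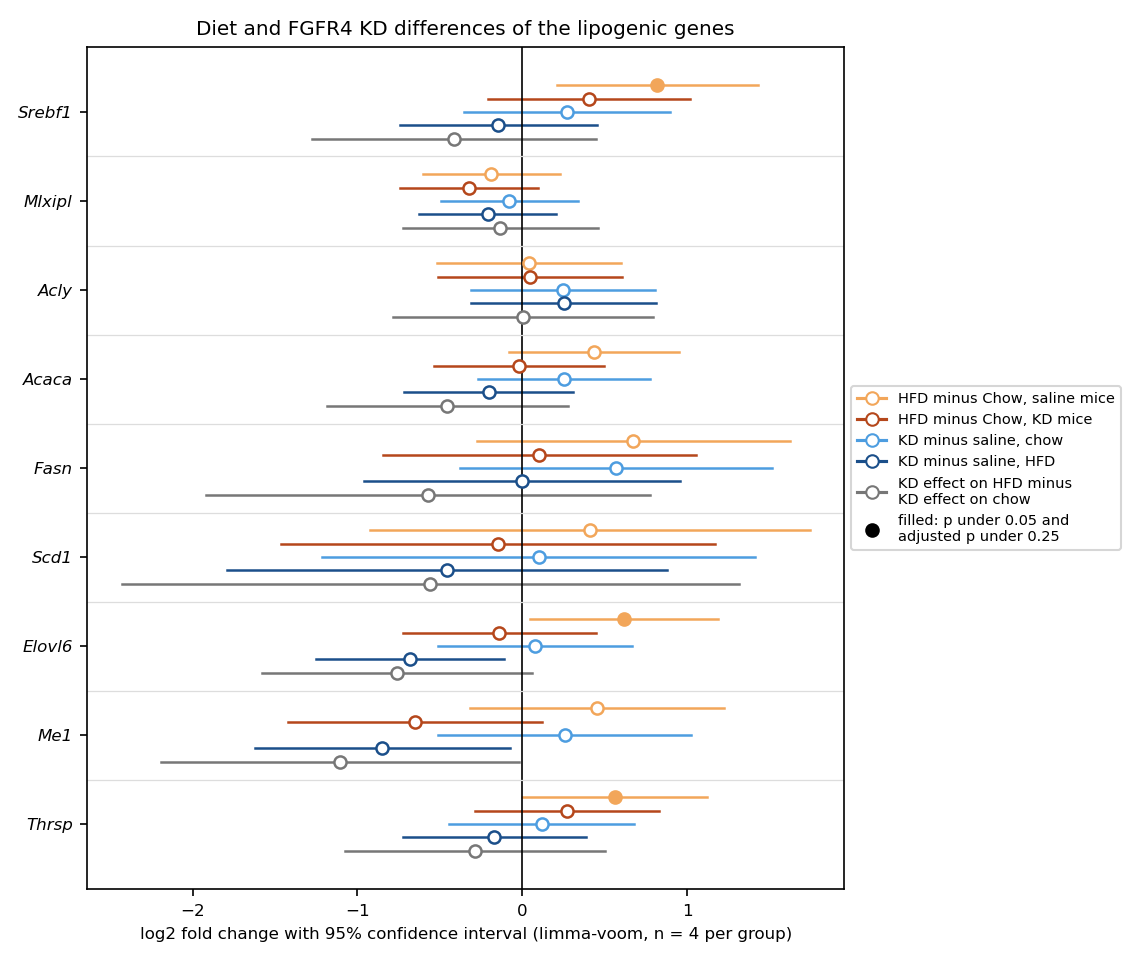
Log2 fold change with its 95% confidence interval (limma-voom, n = 4 per group) of the 9 genes in the 4 comparisons and in the difference between the KD effects on HFD and on chow. Filled points passed the threshold of the study, which only *Srebf1*, *Elovl6* and *Thrsp* did, between HFD and Chow in saline mice; the intervals of *Scd1* are the widest.

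On chow, KD was compared with saline to see the effect of the siRNA without the fat-rich diet. None of the 9 genes passed the threshold, against 0.00883% of all genes, a background of 1 gene, which was the siRNA target *Fgfr4* itself. None of the 9 reached an unadjusted p under 0.05, against 4.58% of all genes. Point estimates were higher in Chow/FGFR4 KD for 8 of the 9 genes, with a median of 0.25 log2 against 0.0041 over all genes. None had groups that did not overlap (2.52% of all genes), and edgeR and DESeq2 called none of them either. *Fasn* had the largest difference of the 9 (0.57 log2, interval -0.38 to 1.51, limma-voom adjusted p = 0.976). It was at 384, 217, 319 and 278 CPM in Chow and at 704, 275, 572 and 322 CPM in Chow/FGFR4 KD, so 2 KD libraries lay above all Chow libraries and 2 lay among them. *Scd1* was at 3704, 3169, 6631 and 5909 CPM in Chow and at 13144, 2584, 5712 and 3141 CPM in Chow/FGFR4 KD. The highest and the lowest of these 8 values were both KD libraries, and the difference was 0.10 log2 (interval -1.22 to 1.41).

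Whether the KD effect depended on diet was tested as the difference between the 2 KD effects. None of the 9 genes passed, against 0.0353% of all genes (4 genes), and none was called by edgeR or DESeq2. *Me1* had the largest difference between the KD effects of the 9, -1.10 log2 (interval -2.19 to -0.02, limma-voom adjusted p = 0.730), and was the 1 gene of the 9 at an unadjusted p under 0.05, against 6.76% of all genes. *Elovl6* followed with -0.76 log2 (interval -1.58 to 0.06, adjusted p = 0.739). The point estimate was negative for 8 of 9 genes, with a median of -0.46 log2 against -0.0026 over all genes, and this median uses the same libraries as the comparisons above.

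HFD against Chow in saline mice gave the response of the pathway to the diet. Of the 9 genes, 3 rose and none fell, against 13.3% of all genes higher and 12.7% lower. They were *Srebf1*, *Elovl6* and *Thrsp*, and none of them passed at an adjusted p under 0.05, which 9.2% of all genes did. Point estimates were higher on HFD for 8 of 9 genes, with a median of 0.45 log2 against 0.0070 over all genes.

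*Srebf1* was at 91.0, 43.3, 85.0 and 86.9 CPM in Chow and at 170, 91.1, 162 and 115 CPM in HFD. It was the only one of the 9 genes whose groups did not overlap, against 16.1% of all genes, and the gap was narrow: 91.06 CPM in HFD 2 against 91.03 CPM in Chow 1. The rise was 0.82 log2 (SE 0.288, adjusted p = 0.0852 by limma-voom). Without Chow 2, the lowest library, it was 0.57 (adjusted p = 0.240), with an unadjusted p above 0.05, so it was no longer called.

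*Elovl6* was at 100.3, 76.5, 64.7 and 63.2 CPM in Chow, against the HFD values above, and rose by 0.62 log2 (SE 0.270, adjusted p = 0.158 by limma-voom). HFD 1, 3 and 4 lay above all Chow libraries and HFD 2 lay among them. *Thrsp* was at 251, 126, 165 and 126 CPM in Chow and at 202, 180, 320 and 266 CPM in HFD, and rose by 0.56 log2 (SE 0.264, adjusted p = 0.193 by limma-voom). Its unadjusted p of 0.04998 lay at the threshold, and edgeR and DESeq2 left it just above. With those 2 tools *Acaca* passed instead, at 0.51 log2 (adjusted p = 0.187 in each), where limma-voom gave 0.44 (adjusted p = 0.274).

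The other enzymes had higher means on HFD without passing the test. *Fasn* was 0.67 log2 (interval -0.28 to 1.62, adjusted p = 0.366), *Me1* 0.45 log2 (interval -0.32 to 1.22) and *Scd1* 0.41 log2 (interval -0.92 to 1.74). *Acly* was 0.04 log2 (interval -0.52 to 0.60). *Mlxipl* had the only lower point estimate, -0.19 log2 (interval -0.61 to 0.23). For *Fasn*, HFD 4 lay within the Chow range and HFD 2 just below it, and HFD 1 and HFD 3 were both more than 2-fold above the highest Chow library. The number of the 9 genes called rested on single libraries. It was 6 without HFD 2 (*Srebf1*, *Elovl6*, *Thrsp*, *Acaca*, *Fasn* and, lower, *Mlxipl*), 1 without Chow 3, Chow 4 or HFD 3, and 0 without Chow 2. With all libraries 26% of all genes were called. The share of all genes in the fits without a library is not given here.

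In KD mice the diet comparison called none of the 9 genes, against 20.2% of all genes, with none at an adjusted p under 0.05 (3.1% of all genes) and none by edgeR or DESeq2. *Srebf1* was 0.40 log2 (interval -0.21 to 1.01) and *Me1* -0.65 log2 (interval -1.42 to 0.12, adjusted p = 0.333). Point estimates were higher for 4 genes and lower for 5, with a median of -0.02 log2 against -0.0088 over all genes. The difference between the diet effects of saline and KD mice is the same quantity as the difference between the KD effects above, in which none of the 9 genes passed.

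*Pnpla3*, a lipid droplet hydrolase gene known to be driven by SREBP1c, was too low to test. It had 12, 0, 9 and 0 counts in HFD 1 to 4. It had 1, 0, 0 and 0 counts in Chow, 2, 0, 0 and 2 in Chow/FGFR4 KD, and 0, 3, 1 and 0 in HFD/FGFR4 KD. The only counts above the floor of 3 were in HFD 1 and HFD 3, and no fold change was computed. Reads shared with Gm49513 could move counts this low, so the values of *Pnpla3* are uncertain.

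Mice of one group differed more in these genes than in most others. The residual SD about the group means was 1.05 log2 for *Scd1*, higher than for 99.0% of all genes tested, 0.75 for *Fasn* (97.1%) and 0.60 for *Me1* (93.9%), against a median of 0.25 over all genes. These 3 were above the 90th percentile of all genes (0.52). *Srebf1* had 0.47 (86.2%), *Elovl6* 0.44 (82.6%), *Acly* 0.43 (81.9%), *Thrsp* 0.43 (81.8%), *Acaca* 0.39 (76.8%) and *Mlxipl* 0.32 (64.8%). Genes of low level vary more, and within the tenth of genes of the same level 8 of the 9 ranked higher still, from 84.8% for *Mlxipl* to 97.3% for *Fasn*, while *Scd1* was at 98.6%.

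**Figure D3:**
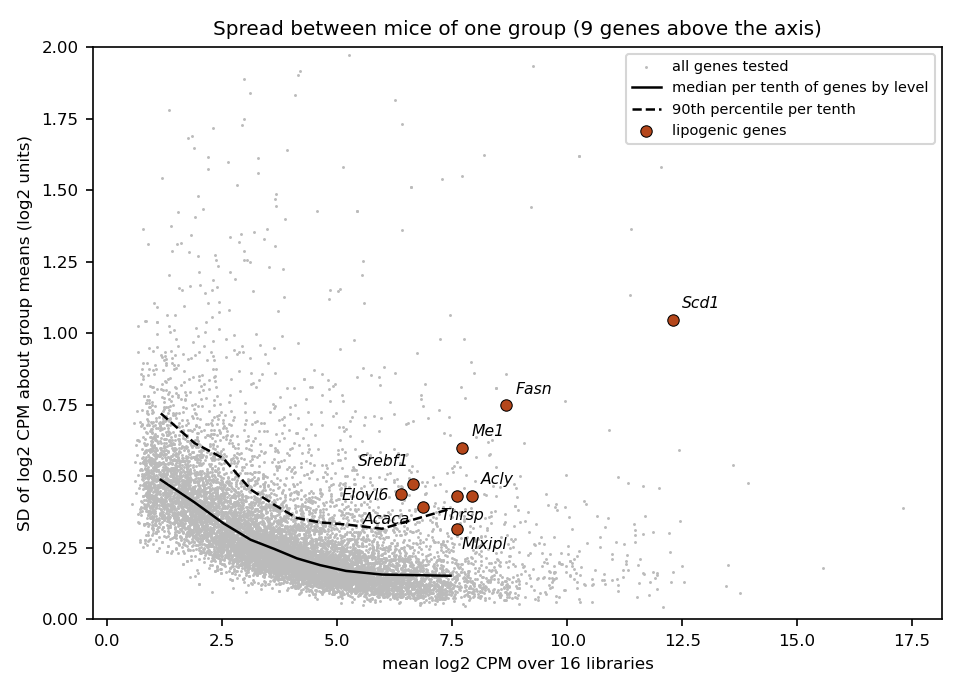
SD of log2 CPM about the group means against the mean log2 CPM over 16 libraries for all genes tested (grey) and the 9 lipogenic genes (red); lines give the median and the 90th percentile along the level of expression. All 9 lie above the median line for genes of their level, and *Scd1* (1.05), *Fasn* (0.75) and *Me1* (0.60) are the most variable of the 9.

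The SD was largest in HFD for 6 of the 9 genes, in HFD/FGFR4 KD for *Me1* and in Chow for *Srebf1* and *Thrsp*. In HFD the highest library was 7.84-fold above the lowest for *Scd1*, 4.25-fold for *Fasn*, 2.55-fold for *Acly*, 2.45-fold for *Acaca*, 2.44-fold for *Elovl6* and 2.31-fold for *Me1*. In Chow the same ratios were 2.09 for *Scd1*, 1.77 for *Fasn*, 1.35 for *Acly*, 1.45 for *Acaca*, 1.59 for *Elovl6* and 1.25 for *Me1*. Over all genes the median SD was 0.21 log2 in HFD and 0.23 log2 in Chow. In Chow/FGFR4 KD the ratio was 5.09 for *Scd1*, and in HFD/FGFR4 KD it was 4.97 for *Scd1*. No test of the difference in spread between groups was run.

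The same libraries were high or low for most of the genes. HFD 3 was the highest of its group for 6 of 9 genes and HFD 2 the lowest for 8 of 9, the exception being *Mlxipl*, for which HFD 2 was the highest with 288 CPM. HFD/FGFR4 KD 1 was the lowest of its group for 8 of 9 genes, *Mlxipl* again excepted. Chow/FGFR4 KD 1 was the highest for 7 of 9 and Chow/FGFR4 KD 2 the lowest for 7 of 9. The mean deviation over the 9 genes was 0.50 log2 in HFD 3, 0.38 in HFD 1, -0.16 in HFD 4 and -0.71 in HFD 2. It was -0.65 in HFD/FGFR4 KD 1. Chow libraries stayed between -0.20 and 0.16. Chow/FGFR4 KD libraries 1 to 4 were at 0.53, -0.42, 0.18 and -0.29, and the first of these was the highest of any library.

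**Figure D4:**
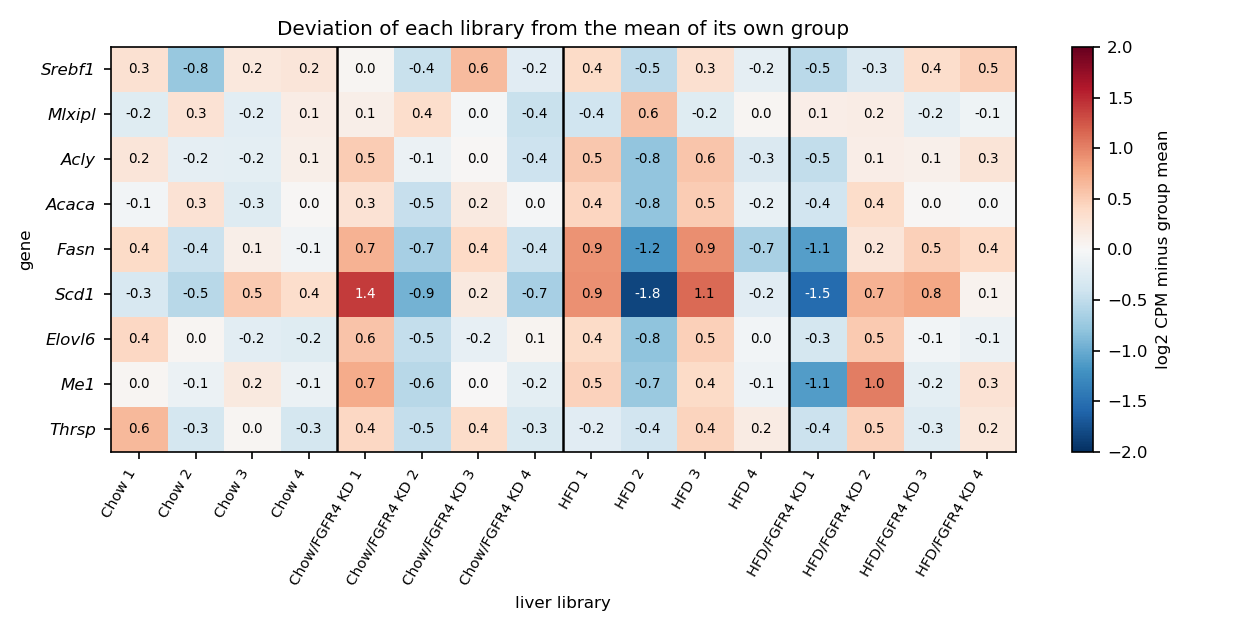
Log2 CPM of each of the 9 genes in each library minus the mean of its own group (red higher, blue lower). HFD 2 and HFD/FGFR4 KD 1 are blue in nearly every row, HFD 1 and HFD 3 red, and *Mlxipl* runs the other way in HFD 1, HFD 2 and HFD 3.

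Deviations from the group mean tied the enzymes to each other. Over the 16 libraries, the correlation of each gene with the mean of the other members was 0.94 for *Fasn*, 0.91 for *Scd1*, 0.90 for *Acly*, 0.87 for *Me1*, 0.82 for *Acaca*, 0.80 for *Elovl6*, 0.66 for *Thrsp* and 0.61 for *Srebf1*, and -0.57 for *Mlxipl*. These are descriptions, since the genes share libraries and scaling. Of the non-member genes, the 5 with the closest pattern were *Pgd* (r = 0.95), the NADPH-producing dehydrogenase of the pentose phosphate pathway, *Cyb5r3* (0.94), the reductase that passes electrons to cytochrome b5, *Pex7* (0.93), *Anxa5* (0.92) and *Rdh11* (0.92). Their likeness was measured on the same 16 libraries with the mean of the 9 genes.

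The levels of the regulators were set against those of the enzymes and *Thrsp* in 14 relations, each tested by permuting libraries within groups and adjusted over the 14. *Srebf1* followed *Fasn* with r = 0.79 (n = 16, permutation p = 0.00043, adjusted p = 0.00602) and rho = 0.79 (permutation p = 0.00064, adjusted p = 0.00896). Without the 2 libraries farthest from the median of *Srebf1*, Chow 2 and HFD/FGFR4 KD 1, r was 0.78. They were picked by *Srebf1* alone, and HFD 2, with the lowest deviation of *Fasn* (-1.16 log2), stayed in. For *Scd1* and *Acly* r was 0.66 with each (permutation p = 0.0118 and 0.0106, adjusted p = 0.0550), and rho was 0.60 and 0.64 (adjusted p = 0.125 in each, permutation). *Mlxipl* ran against *Fasn* with r = -0.62 (permutation p = 0.0393, adjusted p = 0.138) and rho = -0.62 (adjusted p = 0.125). The relation of *Srebf1* to *Fasn* was the only one of the 14 with an adjusted permutation p under 0.05, and the labels name no batch within which it could be repeated.

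**Figure D5:**
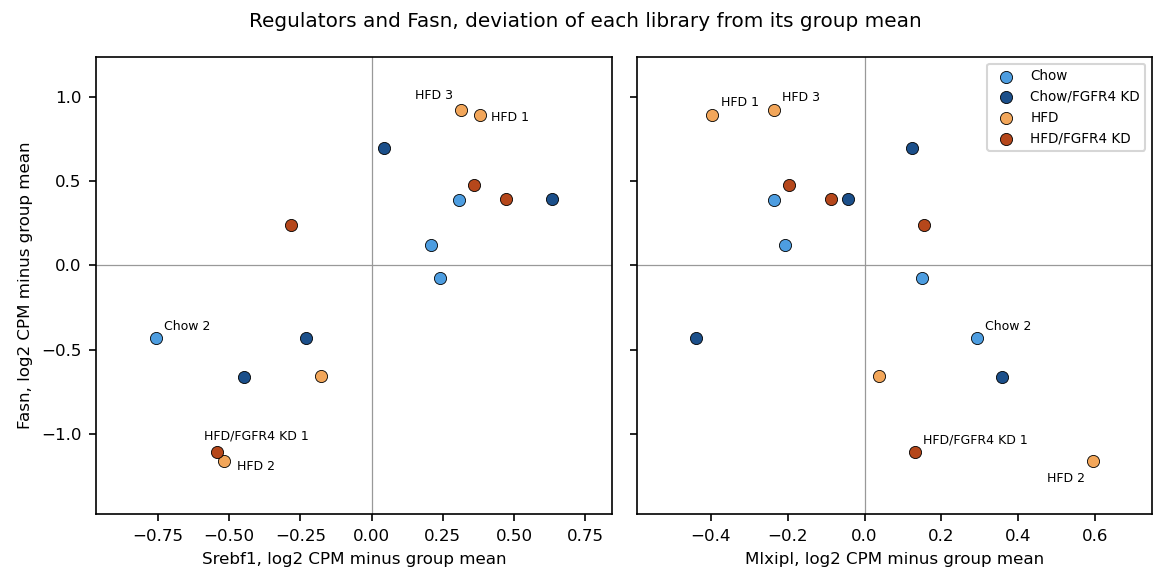
Deviation of *Fasn* from its group mean (log2 CPM) against that of *Srebf1* (left) and *Mlxipl* (right) in the 16 libraries, coloured by group. Libraries high in *Srebf1* are high in *Fasn* (r = 0.79), and libraries high in *Mlxipl* tend to be low in *Fasn* (r = -0.62, adjusted permutation p = 0.138).

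Other features of the libraries were set beside the lipogenic genes, and some of them moved with these genes. On the first principal component of the 500 most variable genes, computed without the 1 lipogenic gene among them, HFD 1 and HFD 3 scored 25.7 and 30.4, HFD 2 and HFD 4 scored 6.02 and 9.64, and HFD/FGFR4 KD 1 scored -6.28, within the range of the Chow libraries (-21.4 to -4.85) and apart from the other KD libraries on HFD (16.7 to 20.6). The sum of 6 stellate cell markers was 280 and 284 CPM in HFD 1 and HFD 3 against 170 and 169 CPM in HFD 2 and HFD 4, with *Col1a1* and *Col3a1* carrying most of the gap. The sum of 5 cholangiocyte markers was 55.2 and 92.5 CPM against 14.4 and 26.5 CPM, mostly *Spp1*, with *Krt7* and *Krt19* at most at 2.01 and 1.07 CPM in HFD. The sum of 8 macrophage markers was highest in HFD 2 (174 CPM, against 93.1 to 104 CPM in the other HFD libraries). In HFD/FGFR4 KD it was lowest in library 1 (81.3 CPM, against 101 to 154 CPM in the others). Hepatocyte markers gave one order of these libraries by their sum and another by their mean log2 CPM. Their sum, most of it *Alb*, was 73842, 71007, 69761 and 63230 CPM in HFD 1 to 4, highest in HFD 1. The mean log2 CPM over the 10 hepatocyte markers was 10.70, 10.97, 10.50 and 10.67 in HFD 1 to 4, highest in HFD 2 and lowest in HFD 3. In HFD/FGFR4 KD it was 11.07 in library 1 and 10.77, 10.92 and 10.87 in the other libraries. That order was the reverse of the order of the mean deviation of the 9 lipogenic genes there. In Chow the mean log2 CPM of the markers lay between 11.07 and 11.18, highest in Chow 1, which was also highest in mean deviation. *Cps1*, the first enzyme of the urea cycle, was at 1459 to 2343 CPM in HFD and at 2723 to 4529 CPM in Chow, and was 1 of the 6 hepatocyte markers of 10 that fell with HFD in saline mice (against 12.7% of all genes lower). HFD/FGFR4 KD 1 also stood apart in its makeup: Gm42418 took 22.3% of its counts and *Lars2* 2.04%, against 13.7% to 16.2% and 1.15% to 1.47% in the other libraries of its group, and its TMM factor was 0.91 against 1.08 to 1.12. Chow 2 and Chow 4 had like shares of Gm42418 (22.2% and 22.7%), and HFD 2, with 14.3%, did not stand apart in its group. The part of these features in the spread of the lipogenic genes was not tested.

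Of the fat cell markers *Cidec* and *Cfd*, and with them genes of the circadian clock, moved with the diet and, on HFD, with KD. The sum of 8 adipocyte markers ran from 5.49 to 30.4 CPM in Chow, from 42.5 to 101 CPM in HFD and from 13.4 to 34.5 CPM in HFD/FGFR4 KD. *Cidec* and *Cfd* carried the difference between the diets, *Adrb3* was at 1.26 to 5.87 CPM in all libraries with overlapping values in Chow (3.39 to 4.83) and HFD (2.81 to 5.87), and the other adipocyte genes *Adipoq*, *Lep*, *Plin1*, *Retn* and *Slc36a2* were at or near 0, at most 1.21 CPM in any library. In HFD *Cidec* was at 53.0, 14.2, 85.7 and 34.3 CPM, with HFD 3 and HFD 1 the highest. Of a clock group with *Dbp*, *Tef*, *Hlf*, the *Per* genes, *Nr1d1* and *Nr1d2*, 6 of 8 genes tested rose with HFD in saline mice. All 5 genes of a group with *Arntl*, *Npas2*, *Clock*, *Cry1* and *Nfil3* fell. Over all genes 13.3% rose and 12.7% fell in that comparison. KD on HFD went the other way for some of them: 3 of these 5 rose (*Arntl*, *Clock* and *Nfil3*) and 2 of the 8 fell (*Dbp* and *Per2*). The shares over all genes were 1.5% higher and 1.64% lower. *Nfil3* was at 8.08 to 22.5 CPM in HFD and at 25.01 to 47.5 CPM in HFD/FGFR4 KD, without overlap, as were 6.49% of all genes. The mean log2 CPM of the first group, with *Ciart* and *Bhlhe41*, which were too low to test, minus that of the second lay between -2.04 and -0.58 in Chow, between 0.62 and 2.95 in HFD and at 0.10, 1.38, 0.50 and 0.54 in HFD/FGFR4 KD 1 to 4. Within HFD it was 0.62, 1.79, 1.97 and 2.95 in HFD 1 to 4, an order unlike that of *Fasn*. Within HFD/FGFR4 KD its order was that of the mean deviation of the 9 lipogenic genes (-0.65, 0.37, 0.11 and 0.17 in libraries 1 to 4). It was not the order of *Fasn* there either, though library 1 was the lowest for both. In bulk liver, fewer cells of a type and less RNA per cell cannot be told apart, and the part of these genes in the diet and KD differences was not tested.

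The wider pathway was read from 79 genes in 7 lists, of which 74 were tested. KD on HFD called 9 of them, 4 higher and 5 lower (against 1.5% and 1.64% of all genes), with a median of -0.10 log2 over the 74 genes against 0.0035 over all genes. The genes that rose were *Elovl3*, an elongase of saturated long-chain fatty acids (1.11 log2, adjusted p = 0.0936), *Acsl3*, a fatty acyl-CoA synthetase (1.04, adjusted p = 0.177), *Angptl8*, a hormone made by the fed liver (0.99, adjusted p = 0.228), and *Mid1ip1*, the partner of acetyl-CoA carboxylase related to *Thrsp* (0.53, adjusted p = 0.190), all by limma-voom. Among those that fell were *Cs*, citrate synthase (-0.50, adjusted p = 0.0525), *Pdha1*, a subunit of pyruvate dehydrogenase (-0.50, adjusted p = 0.0807), *Gpd1*, glycerol-3-phosphate dehydrogenase (-0.53, adjusted p = 0.122), and *Hsd17b12*, the reductase of the elongation cycle (-0.36, adjusted p = 0.146), again by limma-voom. *Mid1ip1* and *Pdha1* shared 22.7% and 15.8% of their words with other transcripts. Only *Cs* and *Pdha1* were called whichever of the 8 libraries was left out, and the count of 9 ranged from 3 to 15. Over all genes the calls ranged from 89 to 605 in the same fits.

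By list, KD on HFD called 3 of 13 genes of carbon supply (all lower, median -0.32 log2), 3 of 15 chain-lengthening and desaturation relatives (2 higher, 1 lower), 2 of 8 other ChREBP targets (1 higher, 1 lower) and 1 of 15 regulators and partners (higher). No gene was called among 8 NADPH sources, 7 genes of glyceride synthesis and 8 AMPK and acetyl-CoA carboxylase control genes. Over all genes 1.5% were called higher and 1.64% lower, and lists this short would mostly hold no call at such shares. KD on chow and the difference between the KD effects called none of the 74, against 0.00883% and 0.0353% of all genes. At such shares no call would be looked for among 74 genes. DESeq2 called 2 of the 74 in the difference, where it also called more of all genes, as given below.

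HFD in saline mice called 21 of the 74 genes, 17 higher and 4 lower, against 26% of all genes. Scaling by library totals only called 36, but it also moved the median of all genes upward, as given below. The 36 therefore cannot be set beside the 26%. Carbon supply had the most, with 7 of 13 genes higher and none lower, among them *Pcx*, pyruvate carboxylase (0.87 log2, adjusted p = 0.0013), and *Mpc1*, a subunit of the mitochondrial pyruvate carrier (0.80, adjusted p = 0.00139 by limma-voom). *Fads2* and *Fads1*, the desaturases of polyunsaturated fatty acids, rose by 1.37 and 0.92 log2, and *Elovl3* fell by 2.80 (adjusted p = 5.06e-05 by limma-voom), in a comparison that shares the HFD libraries with KD on HFD. Among ChREBP targets *Rgs16* rose by 3.13 and *G6pc* fell by 1.84 log2, and among regulators *Pparg* rose by 1.05 (adjusted p = 0.0719 by limma-voom) and *Scap*, the escort of SREBP, fell by 0.33. The pentose phosphate genes *Tkt* and *Taldo1* rose by 0.43 and 0.25 log2, and no gene of glyceride synthesis or AMPK control was called.

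In KD mice HFD called 18 of the 74, 11 higher and 7 lower (against 10.1% and 10.1% of all genes). *Fads2* (1.28 log2), *Fads1* (0.87), *Mpc1* (0.48), *Mid1ip1* (0.78), *Insig1* (0.68), *Rgs16* (2.83) and *Fgf21* (2.59) rose. *Elovl3* fell by 1.60, *Prkaa1*, a catalytic subunit of AMPK, by 0.55, and *H6pd* and *Me3*, which supply NADPH, by 0.45 and 0.59 log2.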

How the data were processed

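Poly(A) RNA libraries of 16 mouse livers were examined. The authors trimmed reads with fastp, pseudoaligned them with kallisto and summed transcripts to genes with tximport, on GRCm38; versions and the transcriptome release are not given in the sources used here. The deposited table holds estimated counts (expected counts), of which 7.85% to 11.1% per library are not whole.

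Genes under 1 CPM in more than 4 libraries were left out, as in the study. TMM scaling came from edgeR 4.0.16, and the remaining counts were fitted with limma-voom (limma 3.58.1, R 4.3.3), with a mean per group and all 16 libraries. A call needed p under 0.05 and, after Benjamini-Hochberg adjustment over all genes, under 0.25. DESeq2 1.42.0 and edgeR's quasi-likelihood test, on counts rounded for DESeq2, were alternatives. Log2 CPM used a prior count of 2. Relations between genes used deviations from group means and 100000 permutations within groups. Intervals are 95%. Scripts were tested on simulated data.

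The members and gene lists were chosen with earlier results of these data known. All members are named; other pathway genes are named when called with KD on HFD or, for the diet, as the 2 rising and 2 falling of each list with the smallest p. Some genes that this rule would name are not reported here. Gm42418 alone took 11.1% to 22.7% of the counts of a library, which lowers the depth left for other genes. The 24 pairs of libraries within groups differed beyond sampling noise. P-values of fold changes set the difference between groups against the spread between mice within groups. Variation between cages or batches, which were not given, may not enter that spread.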

Additional observations from a re-analysis of the deposited data

Results flagged for a closer look

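In the groups of 4 libraries, 36 sets of values (9 genes in 4 groups) were examined for a library far from the others, by Dixon's ratio of its gap to the range. Only *Srebf1* in Chow 2 was, with 43.3 CPM (43.3035) against 85.0 to 91.0 CPM in the other Chow libraries. Chance would give about 1.8 in 36 sets. Without Chow 2, the diet difference of *Srebf1* in saline mice was 0.57 log2 in place of 0.82.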

How the results depend on the processing

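Besides leaving out libraries, 416 of 441 log2 fold changes of the 9 genes kept their direction and their side of the threshold. The cause of the changes was not tested. For KD on HFD, *Fasn* turned from -0.0037 to 0.000188 with upper-quartile factors, 0.00124 with only the groups compared and 0.0189 with the replicate block. The difference between the KD effects for *Acly* (0.0047) turned to -0.107 with edgeR, -0.104 with DESeq2, -0.0441 without a filter, -0.115 with library totals only and -0.0965 with quality weights. In KD mice the diet difference of *Acaca* turned to 0.138 with library totals only, 0.0224 with upper-quartile factors and 0.0169 with quality weights, and with totals only *Scd1* turned to 0.0153 and *Elovl6* to 0.019; in saline mice *Mlxipl* turned to 0.0898. Totals only moved the median of all genes by 0.287 in saline mice and 0.141 in KD mice on the log2 scale (92.1% and 82.8% of calls higher, against 51.2% and 50.1%), and gave an SD of 0.547 for *Srebf1* and 0.494 for *Thrsp*. With quality weights KD on HFD called 1 of the 9 genes (*Elovl6*, adjusted p = 0.194, limma-voom) and HFD in KD mice called 1 (*Mlxipl*), and at an adjusted p under 0.05 the 3 genes called in saline mice became 0. Over all genes KD on HFD called 356 in the reported fit, 114 with totals only, 776 with quality weights and 222 with only the groups compared, HFD in saline mice called 2939 (5324 without a filter), and the difference between the KD effects called 4 (54 with DESeq2). Of the 74 pathway genes, totals only called 4 and quality weights 17 with KD on HFD, and totals only called 36 with HFD in saline mice (21 in the reported fit).

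Leaving out each library in turn, the 9 genes gave 0 to 2 calls with KD on HFD. They gave 0 to 6 calls with HFD in saline mice and 0 to 1 with HFD in KD mice. Over all genes the calls with KD on HFD ranged from 89 to 605 in these fits. Signs turned within these ranges of log2 fold change. With KD on HFD they were -0.39 to 0.37 for *Fasn*, -1.07 to 0.0535 for *Scd1*, -0.32 to 0.0363 for *Srebf1* and -0.0151 to 0.43 for *Acly*. With KD on chow they were -0.36 to 0.41 for *Scd1*, -0.13 to 0.24 for *Elovl6*, -0.20 to 0.0693 for *Mlxipl* and -0.0269 to 0.33 for *Thrsp*. With HFD in saline mice they were -0.14 to 0.31 for *Acly*. With HFD in KD mice they were -0.17 to 0.11 for *Acaca*, -0.0944 to 0.21 for *Acly*, -0.31 to 0.0564 for *Elovl6*, -0.12 to 0.47 for *Fasn* and -0.46 to 0.36 for *Scd1*. For the difference between the KD effects they were -0.26 to 0.19 for *Acly* and -0.28 to 0.0656 for *Mlxipl*.

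Same-numbered libraries of different groups showed no common tendency to deviate together (r from -0.29 to 0.24). This check cannot decide whether the numbers pair the mice, since a weak shared effect could give such values. With the replicate block 259 genes were called with KD on HFD and 2 of the 9 lipogenic genes with HFD in saline mice, where *Thrsp* had p above 0.05. Removing Gm42418 and *Lars2* before scaling, chosen after the data were seen, also left 2. The intervals of *Scd1* and *Fasn* held 0 in every comparison and, with KD on HFD, reached -1.79 and -0.96 log2, which limits what 4 mice per group can show.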
